A study of Mus musculus with 18 samples.

Results

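The small RNA table of 5-methylcytosine (m5C) sites in mouse testis lists 29 sites in 23 cytosolic tRNA genes that decode proline, isoleucine, lysine, methionine, tyrosine, histidine or arginine. They were chosen by gene name, as every cytosolic tRNA row outside the glutamate, aspartate, glycine, valine, leucine, serine, threonine, cysteine and alanine families, and make up 29 of the 192 sites in the table. Adult mouse testes of wild-type (WT) and Nsun7 knockout genotype were profiled, with 3 small RNA libraries each. The small RNA table holds no mRNA, so neither the loss of Nsun7 nor the testis origin can be checked in it. Neither strain background nor the kind of Nsun7 allele is given in the sources used here, and nothing in them ties each library of a genotype to an animal of its own. The p-values therefore measure only how far these libraries scatter, and that scatter may be technical. The series title calls NSUN7 inactive as an RNA m5C methyltransferase, and the genotype comparison asks whether m5C at these tRNA sites depends on Nsun7.

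As background, m5C in cytosolic tRNA is set by a few enzymes with distinct targets. NSUN2 methylates cytosines where the variable loop meets the T stem in many tRNAs, DNMT2 methylates the anticodon loop of aspartate, glycine and valine tRNAs, and NSUN6 methylates the acceptor stem of cysteine and threonine tRNAs. The mark is known for stabilising tRNAs against cleavage into fragments, which are abundant in sperm. Bisulfite turns unmethylated cytosine into uracil, so the m5C level is the percentage of reads at a site that still show C, and cytosines that escaped conversion count as m5C too. tRNA genes whose names differ only in the last number are copies with the same mature sequence, so the way reads were assigned to copies, not given in the sources used here, bears on the value of each copy.

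The 29 sites took between 21181 and 25867 reads per library, 0.445% to 0.524% of the coverage summed over all listed sites. That sum includes tRNA-Glu-TTC-1-1, whose coverage was nearly equal in all libraries (965898 to 972377 reads), and whether a limit on depth acted there was not tested. Depth differed widely among them. Coverage ran from 8 reads at tRNA-Ile-AAT-1-3 to 14619 at tRNA-iMet-CAT-1-4. Among them 28 sites had at least 10 reads in all 6 libraries, 15 had at least 50, and 16 stayed under 100 in every library. Intervals given for single libraries are 95% Clopper-Pearson intervals (exact binomial), which describe counting error only. Positions are those of the table, with GRCm39 as the build named in the submitters' processing notes. The tRNA gene of each site is the one the table names, which was not checked against a genome.

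No site among the 29 differed between genotypes by the test over all small RNA sites. A quasi-binomial logistic model of the C reads, with Benjamini-Hochberg adjustment over the 184 testable sites of the table, called 0 of the 29 sites (0% of all sites were called), and its lowest adjusted p was 0.961. At an unadjusted p under 0.05 it had 1 of the 29 sites, tRNA-Pro-TGG-1-1 at position 98464669, and 2 of all 184. On the levels, limma also called 0 and had 3 of the 29 at an unadjusted p under 0.05, and 7 of the 187 it tested. Those of the 29 were both sites of tRNA-Pro-TGG-1-1 and tRNA-Ile-AAT-1-1. The 3 knockout libraries stood above the 3 WT libraries at 4 of the 29 sites, where 5.73% of all listed sites did, and below them at 1, where 5.73% did as well. The 4 were both sites of tRNA-Pro-TGG-1-1, tRNA-Ile-AAT-1-6 and tRNA-Lys-CTT-3-4, and the 1 was tRNA-Ile-AAT-1-1. Within same-numbered pairs the knockout was higher in all 3 at 5 of the 29 sites (33 of all 192) and lower in all 3 at 3 (27 of 192). Beside the sites just named these were tRNA-His-GTG-3-1 at 96343358, higher, and tRNA-iMet-CAT-1-5 and tRNA-Met-CAT-2-1 at 21351821, lower. Across all 29, the knockout mean was higher at 18 sites and lower at 11, with a median difference of 0.337 percentage points. Averaged over the 29 sites, WT libraries had 66.4% ± 2.12 and knockout libraries 67.7% ± 0.949 (SD, n = 3), and the 9 knockout minus WT differences between libraries ran from -1.49 to 4.56 points. The mean difference was 1.28 points, 0.126 without WT replicate 1 and 2.20 without WT replicate 3. The limma 95% interval of the difference excluded a complete loss of the WT level at all 29 sites and a loss of 50% of it at 24. That interval takes no account of coverage, so at shallow sites it can be narrower than counting error. At tRNA-Lys-TTT-1-5 (10 to 38 reads) its lower end was -4.4 points, while the exact interval of WT replicate 1 alone was 5.11% to 31.9%. These counts are therefore no firm bound at shallow sites.

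**Figure D1:**
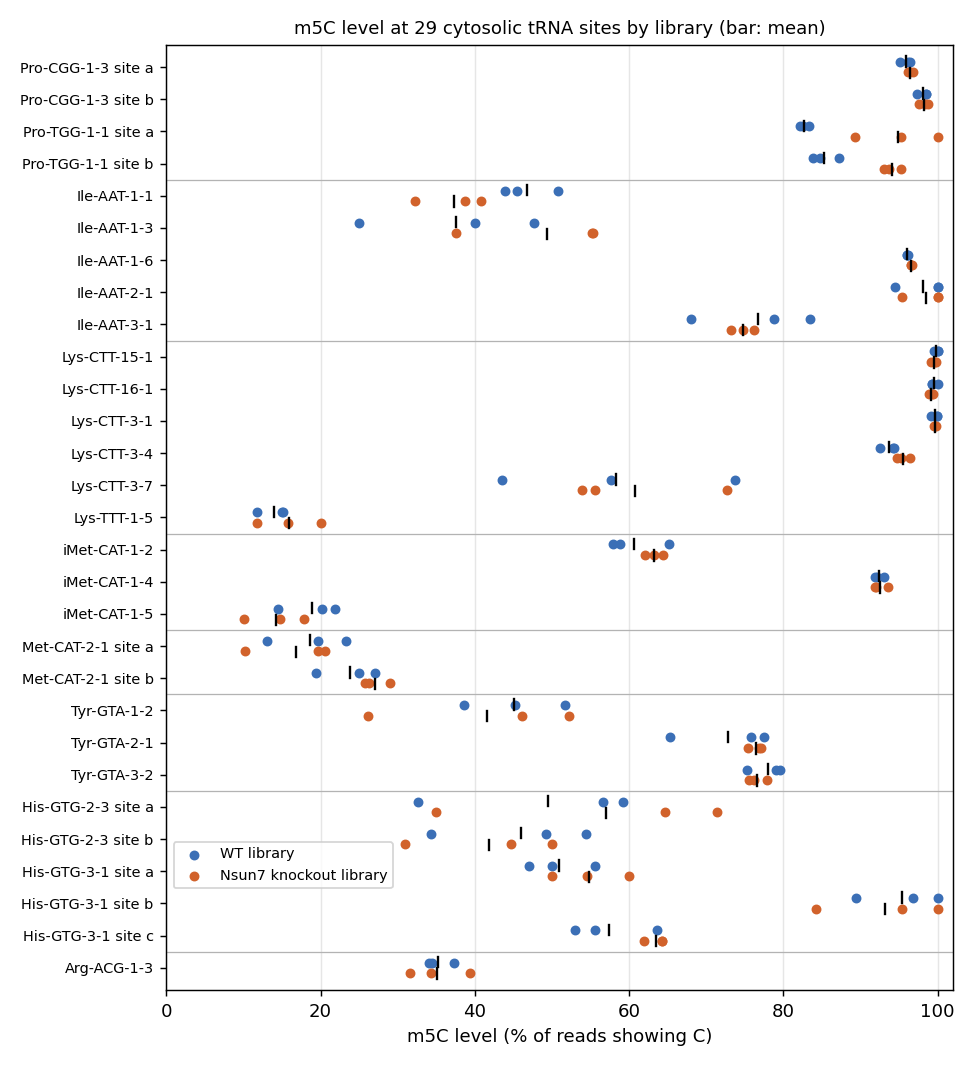
m5C level in percent (x axis) at each of the 29 sites (y axis, grouped by amino acid; sites a, b and c of a gene are in order of coordinate), with 3 WT libraries in blue, 3 Nsun7 knockout libraries in orange and a black bar at each mean. WT means run from 14.0% at Lys-TTT-1-5 to 99.8% at Lys-CTT-15-1, and the blue and orange points overlap at all but 5 sites.

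Family means spanned 21.6% to 93.2%, while the genotype differences of the family means were -0.625 to 5.38 points. As a median over sites the difference was 7.34 points for histidine instead of 2.28 and 3.28 for tyrosine instead of -0.484. Leaving out 1 library or another turned the sign of the mean difference in each family but proline. Proline tRNAs had the highest mean, 93.2% ± 3.06 over the 6 libraries (SD), followed by lysine at 78.0% ± 2.28, isoleucine at 71.2% ± 2.53 and tyrosine at 65.1% ± 4.18. Histidine stood at 61.0% ± 5.18, initiator methionine at 57.0% ± 1.93, arginine at 35.2% ± 2.72 and elongator methionine at 21.6% ± 3.54. Each family exceeded the next in all 6 libraries, except tyrosine over histidine and histidine over initiator methionine, which held in 5 of 6 with mean differences of 4.13 ± 6.05 and 3.99 ± 5.25 points (SD), smaller than their spread. These means give each site equal weight whatever its coverage, and the order does not hold with sites weighted by reads. The site of tRNA-iMet-CAT-1-4 had a mean level of 92.42% at a median of 11261 reads. The other initiator sites had medians of 414.5 and 88.5 reads, and the highest tyrosine site had a mean of 77.25%. Weighted by reads, initiator methionine therefore lies above tyrosine. The other ranks were not computed with such weights. The family means also mix genes of very different levels. In WT, single sites ranged from 14.0% to 99.8% within the lysine family and from 37.5% to 98.1% within the isoleucine family. Those within the initiator methionine family ranged from 18.9% to 92.4%.

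Proline tRNAs had 4 sites in 2 genes, each gene with a pair of adjacent cytosines. tRNA-Pro-CGG-1-3 (chromosome 17) was deep and nearly fully methylated. At position 23759936 it stood at 96.5%, 95.2% and 96.2% in the WT libraries and at 96.2%, 96.8% and 96.4% in the knockout libraries (1482 to 2005 reads). At 23759937 it stood at 98.4%, 98.5% and 97.3% in WT libraries against 98.3%, 98.7% and 97.5% in the knockout (1457 to 1983 reads). The genotypes overlapped at both sites, and the differences of 0.516 and 0.0906 points were smaller than the SD of the WT libraries. The second turned to -0.300 without WT replicate 3 and was 0.415 without knockout replicate 3.

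tRNA-Pro-TGG-1-1 (chromosome 7) was shallow, at 21 to 46 reads. At position 98464669 the WT libraries stood at 82.2%, 82.5% and 83.3% and the knockout libraries at 95.2%, 89.3% and 100%. At 98464670 they stood at 84.8%, 87.2% and 83.9% in WT libraries against 95.2%, 93.1% and 93.8% in the knockout. All 3 knockout libraries lay above all 3 WT libraries at both sites, by 5.95 and 5.92 points at the nearest, but both sites are read by largely the same molecules and count as 1 observation. The mean differences were 12.2 points (range over 9 library pairs 5.95 to 17.8) and 8.75 points (5.92 to 11.4). The exact permutation test gave p = 0.1 at each, the smallest that 3 against 3 libraries allow, and limma gave adjusted p of 0.757 and 0.124. At 98464669 the exact interval of WT replicate 1 was 67.9% to 92.0%, that of knockout replicate 1 76.2% to 99.9% and that of knockout replicate 3 89.4% to 100%. The spread of the 3 WT libraries at that site, 0.578 points, was smaller than counting of 30 to 45 reads gives on its own.

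The family mean of proline was thus 90.5% ± 0.332 over WT libraries and 95.9% ± 1.26 over knockout libraries (SD, n = 3), carried by tRNA-Pro-TGG-1-1. Restricted to the sites that every library covered 50 times or more, which are those of tRNA-Pro-CGG-1-3, the difference of 5.38 points became 0.303.

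Isoleucine tRNAs had 5 sites in 5 genes, all with the anticodon AAT, whose first base is edited to inosine in the mature tRNA. tRNA-Ile-AAT-1-6 (chromosome 13, position 22213441), the deepest, stood at 96.1%, 96.2% and 96.0% in WT libraries against 96.5%, 96.7% and 96.5% in the knockout (1237 to 1547 reads). The groups did not overlap, but the gap was 0.338 points and the mean difference 0.507 points. Here, too, the libraries lay closer together than counting alone gives: the dispersion, which is 1 where counting is the only source of spread, was 0.0377. The test with a dispersion of at least 1 gave an unadjusted p of 0.294.

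tRNA-Ile-AAT-1-1 (chromosome 11, position 68927877) stood at 45.5%, 50.8% and 43.9% in WT libraries against 32.3%, 40.7% and 38.7% in the knockout (31 to 62 reads). All 3 knockout libraries were below all 3 WT libraries, by 3.16 points at the nearest, with a mean difference of -9.49 points (46.7% ± 3.63 against 37.2% ± 4.43, SD, n = 3, exact permutation p = 0.1). The limma adjusted p was 0.757. Leaving out 1 library moved the difference between -11.2 and -7.00 points.

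The other isoleucine genes overlapped between genotypes. tRNA-Ile-AAT-3-1 (chromosome 13, position 23581278) stood at 68.0%, 83.4% and 78.7% in WT libraries against 74.8%, 73.2% and 76.2% in the knockout (151 to 181 reads). WT replicate 1 was the lowest of the 6, and the difference of -1.98 points was -6.33 without it and 1.37 without WT replicate 2. tRNA-Ile-AAT-1-3 (chromosome 12, position 110811820) stood at 25.0%, 40% and 47.6% in WT libraries against 55.3%, 37.5% and 55.2% in the knockout, at only 8 to 38 reads. tRNA-Ile-AAT-2-1 (chromosome 4, position 27904827) stood at 100%, 100% and 94.4% in WT libraries against 100%, 100% and 95.5% in knockout libraries (14 to 26 reads). As a family, isoleucine stood at 71.0% ± 3.71 and 71.3% ± 1.46 (SD, n = 3), and with the 1 site below 10 reads in a library, tRNA-Ile-AAT-1-3, left out the difference of 0.230 points was -2.66.

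Lysine tRNAs had 6 sites in 6 genes, 5 with the anticodon CTT and 1 with TTT. The deepest was tRNA-Lys-CTT-3-1 (chromosome 3, position 96335598), at 99.2%, 99.9% and 99.9% in WT libraries against 99.6%, 99.8% and 99.7% in the knockout (1015 to 5341 reads). tRNA-Lys-CTT-15-1 and tRNA-Lys-CTT-16-1 were likewise near 100%, with means of 99.8% and 99.5% in WT and of 99.5% and 99.2% in the knockout. tRNA-Lys-CTT-3-4 (chromosome 13, position 23620557) stood at 92.6%, 94.4% and 94.3% in WT libraries against 94.8%, 95.3% and 96.4% in the knockout (609 to 781 reads). Its libraries lay apart by 0.381 points, with a mean difference of 1.73 points (range 0.381 to 3.81, exact permutation p = 0.1) and an unadjusted p of 0.0799 in the quasi-binomial model. Without WT replicate 1 that difference was 1.15 points. tRNA-Lys-CTT-3-7 ranged from 43.5% to 73.7% over the 6 libraries at 18 to 26 reads. tRNA-Lys-TTT-1-5 (chromosome 19, position 11983451), the lowest of the 29 sites, stood at 15.2%, 11.8% and 15.0% in WT libraries against 15.8%, 20% and 11.8% in the knockout (10 to 38 reads). The genotypes overlapped at each lysine site but tRNA-Lys-CTT-3-4.

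Methionine has separate tRNAs for starting a protein and for internal codons. The initiator gene tRNA-iMet-CAT-1-4 (chromosome 13, position 22159248), the deepest of the 29 sites, stood at 91.9%, 93.1% and 92.1% in WT libraries against 91.9%, 93.6% and 92.0% in the knockout (9365 to 14619 reads). Replicate 2 was the highest library of each genotype, above the exact intervals of the others of its genotype, and the dispersion was 10.3. The mean difference was 0.110 points, with a range of -1.19 to 1.66 over library pairs and of -0.435 to 0.459 with 1 library left out. Another initiator copy, tRNA-iMet-CAT-1-2 (chromosome 13, position 21895210), stood at 58.0%, 65.1% and 58.8% in WT libraries against 63.2%, 62.1% and 64.4% in the knockout (347 to 492 reads). tRNA-iMet-CAT-1-5 (chromosome 13, position 23684296) stood at 14.4%, 21.9% and 20.2% in WT libraries against 10.1%, 17.9% and 14.8% in the knockout (67 to 97 reads). Its knockout library was the lower in all 3 same-numbered pairs (exact sign-flip p = 0.25, the smallest that 3 pairs allow). Without the pairing, the groups overlapped (exact permutation p = 0.3).

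The elongator gene tRNA-Met-CAT-2-1 (chromosome 13) had adjacent sites of low level. Position 21351821 stood at 19.7%, 13.1% and 23.3% in WT libraries against 19.6%, 10.3% and 20.5% in the knockout, and 21351822 at 27.1%, 19.4% and 25.0% in WT libraries against 26.3%, 25.8% and 29% in the knockout. Coverage was 28 to 61 reads and the genotypes overlapped at both.

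Tyrosine tRNAs, whose genes carry an intron that is spliced from the precursor, had 3 sites in 3 genes. tRNA-Tyr-GTA-2-1 (chromosome 5, position 31045490) stood at 65.3%, 77.6% and 75.8% in WT libraries against 75.5%, 77.2% and 76.9% in the knockout (1384 to 2053 reads). WT replicate 1 stood apart: its exact interval of 62.7% to 67.7% did not reach those of the other 5 libraries, the lowest of which began at 73.4%. The dispersion was 18.5, the highest of the 29 sites. Pooling reads over libraries hides this spread, and Fisher's exact test on pooled reads, which called 12.8% of the 187 sites it tested, called this site alone of the 29 (difference 2.93 points, adjusted p = 0.00612). The mean difference of 3.63 points was -0.180 without WT replicate 1. tRNA-Tyr-GTA-3-2 (chromosome 14, position 51327010) stood at 75.3%, 79.1% and 79.5% in WT libraries against 75.6%, 76.1% and 77.8% in the knockout (221 to 295 reads). tRNA-Tyr-GTA-1-2 (chromosome 13, position 23610737) spanned 38.6% to 51.7% over WT libraries and 26.2% to 52.2% over knockout libraries, at 52 to 67 reads.

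Histidine tRNAs, which carry an extra guanosine at the 5′ end, had 5 sites in 2 shallow genes. In tRNA-His-GTG-2-3 (chromosome 2) the site at 122208478 stood at 32.6%, 56.6% and 59.3% in WT libraries against 71.4%, 64.7% and 35.0% in the knockout (20 to 53 reads). The site at 122208519 stood at 34.2%, 49.2% and 54.4% in WT libraries against 50%, 44.7% and 31.0% in the knockout (42 to 73 reads). WT replicate 1 and knockout replicate 3 were the lowest of their group at both sites, so libraries within a genotype differed by more than the genotypes. Leaving out 1 library moved the difference at 122208478, 7.55 points, between -0.887 (without WT replicate 1) and 18.6 (without knockout replicate 3). That at 122208519, -4.08 points, moved between -9.93 and 1.39 with the same libraries left out. tRNA-His-GTG-3-1 (chromosome 3) had 3 sites at 15 to 36 reads, with WT means of 50.9% at position 96343334, 95.4% at 96343335 and 57.4% at 96343358, and knockout means of 54.8%, 93.2% and 63.5%. The genotypes overlapped at all 3.

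Arginine had a single site, in tRNA-Arg-ACG-1-3 (chromosome 14, position 54755201), whose anticodon also begins with an A edited to inosine. It stood at 34.4%, 37.3% and 34.1% in WT libraries against 39.3%, 34.3% and 31.6% in the knockout (89 to 122 reads), so that the mean difference was -0.194 points and single library pairs differed by -5.68 to 5.26. Leaving out 1 library moved the mean difference between -2.33 and 1.54.

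With ties left out, WT replicate 1 was the lowest of the 6 libraries at 9 of the 29 sites and the highest at 0. It shared the highest level, 100%, at tRNA-Ile-AAT-2-1 and tRNA-Lys-CTT-15-1. At the 110 sites of the other cytosolic tRNAs it was the lowest at 26 and the highest at 19. The remaining 5 libraries were each the lowest at 3 to 5 of the 29 sites.

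**Figure D2:**
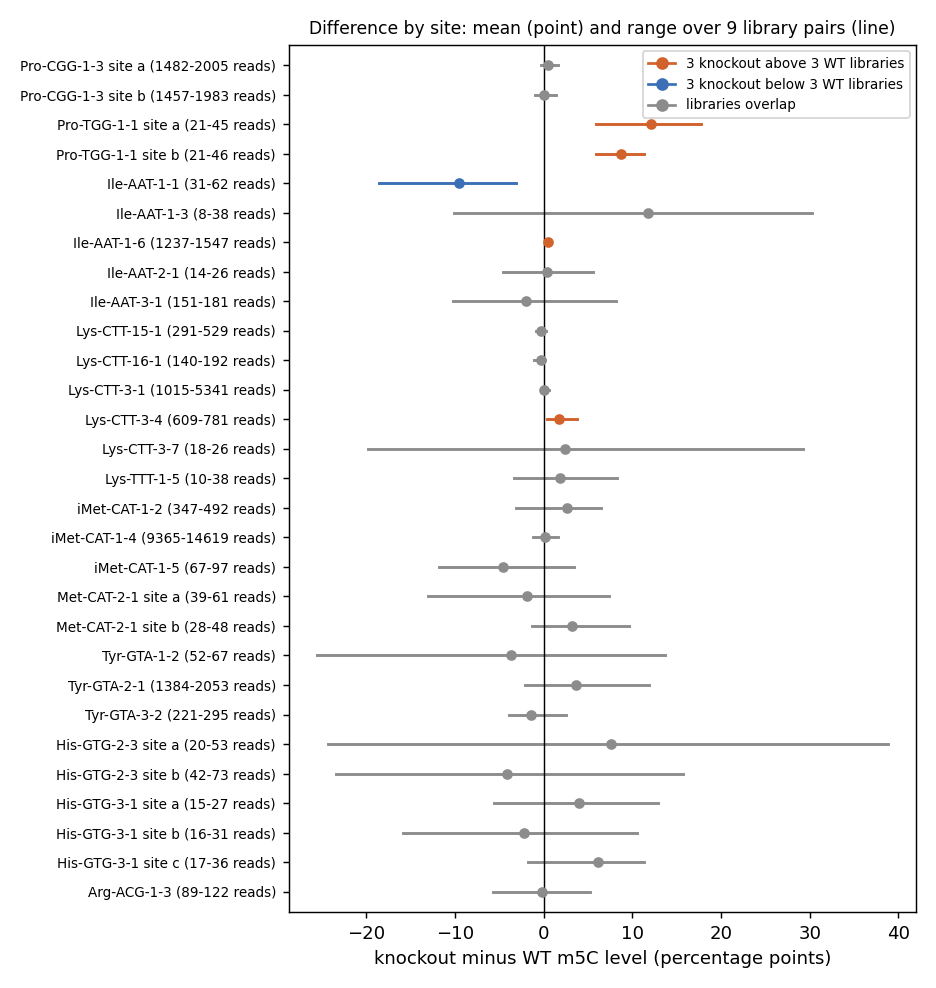
Knockout minus WT m5C level in percentage points (x axis) at each site (y axis, with its range of coverage): points are mean differences and lines span the 9 differences between single WT and knockout libraries, orange where all knockout libraries lie above WT, blue where all lie below and grey where they overlap. The widest line is that of His-GTG-2-3 site a (-24.3 to 38.8 points, 20 to 53 reads), and Tyr-GTA-2-1 has a wide one (-2.09 to 11.9 points) at 1384 to 2053 reads.

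Genes that are copies of the same mature tRNA did not share the same listed level. Over the 6 libraries, the initiator copy tRNA-iMet-CAT-1-4 stood at 92.4% (median 11261 reads) and tRNA-iMet-CAT-1-5 at 16.6% (88.5 reads). tRNA-iMet-CAT-1-2 lay between them in level and in coverage, and that order held in all 6 libraries. Among the lysine copies, tRNA-Lys-CTT-3-1 stood at 99.7% and tRNA-Lys-CTT-3-7 at 59.5%, again with the order of coverage kept over all 3 copies in all 6 libraries. Among the isoleucine copies, tRNA-Ile-AAT-1-6 stood at 96.3% against 43.4% for tRNA-Ile-AAT-1-3, and was the highest in all 6 libraries, while the order of the other two matched their coverage in only 3. So in all 3 sets the most covered copy had the highest level in every library. Of 10 such sets in the other cytosolic families, averaged over the sites of each gene, the most covered copy was highest in all 6 libraries in 6 sets and in 0 libraries in 4. Whether the listed sites are the same position of the tRNA in each copy is not given in the table. How reads were assigned to copies is not given either. These levels therefore cannot be read as different methylation of the copies. Over the 29 sites the mean level and the median coverage had a Spearman correlation of 0.452, and over the 110 other cytosolic sites of 0.368. These are descriptions across sites of the same libraries, some of which share reads.

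**Figure D3:**
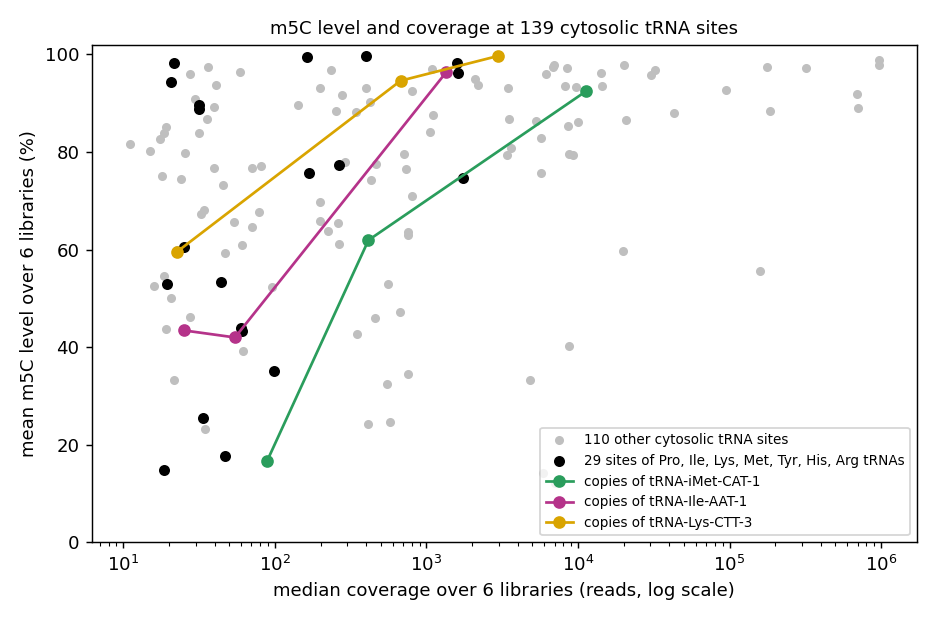
Mean m5C level in percent (y axis) against median coverage (x axis, log scale) over the 6 libraries for the 29 sites (black or coloured) and 110 other cytosolic tRNA sites (grey). Coloured lines join copies with the same mature sequence, and the most covered copy of each is the highest, at 92.4% for iMet-CAT-1, 96.3% for Ile-AAT-1 and 99.7% for Lys-CTT-3.

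Neighbouring sites of a gene were compared within each library, as the level at the higher coordinate minus that at the lower. The table marks every site with a plus sign, so which of the pair lies towards the 5′ end is not known. The largest contrasts were in tRNA-His-GTG-3-1, where 96343335 exceeded its adjacent base 96343334 by 41.5 ± 8.98 points (SD, n = 6), and 96343358, 23 nucleotides further, was lower again, with a difference of -33.9 ± 9.35 points from 96343335. tRNA-Met-CAT-2-1 had a difference of 7.71 ± 4.49 points, and tRNA-Pro-CGG-1-3, at high levels, 1.94 ± 0.828 points. These 4 pairs had the same sign in 6 of 6 libraries. An exact sign-flip permutation test gave p = 0.031 for each, the smallest that 6 libraries allow, and 0.0385 after Benjamini-Hochberg adjustment over the 53 pairs of all cytosolic tRNAs, of which 81.1% passed. The adjacent sites of tRNA-Pro-TGG-1-1 differed by 0.891 ± 3.94 points (adjusted p = 0.585, exact sign-flip), and those of tRNA-His-GTG-2-3, 41 nucleotides apart, by -9.35 ± 9.30 points (adjusted p = 0.0720, exact sign-flip). Knockout minus WT differences of this contrast ran from -11.6 points (tRNA-His-GTG-2-3) to 8.31 points (the second tRNA-His-GTG-3-1 pair), with exact permutation p of 0.2 to 0.7, where 3 against 3 libraries cannot go below 0.1.

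**Figure D4:**
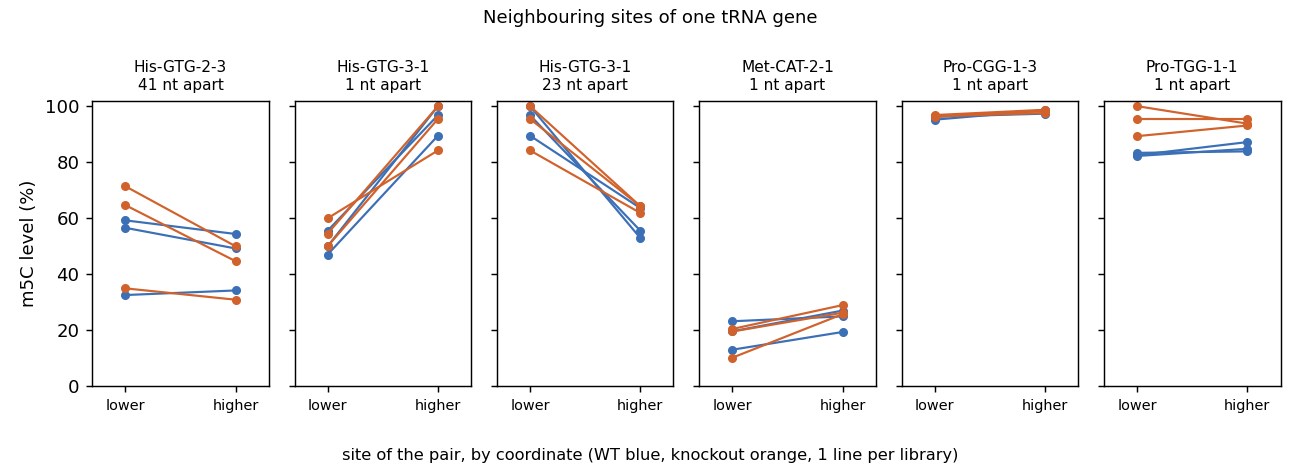
m5C level in percent (y axis) at the lower and the higher coordinate (x axis) of the 6 neighbouring site pairs, with 1 line per library (WT blue, knockout orange). Lines run upwards in all 6 libraries for the first His-GTG-3-1 pair, Met-CAT-2-1 and Pro-CGG-1-3, and downwards in all 6 for the second His-GTG-3-1 pair.

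Coverage gives a second readout of the same genes, the number of reads from each tRNA, where in bulk testis fewer cells of a type, less RNA per cell and poorer capture cannot be told apart. edgeR's quasi-likelihood test with TMM scaling, on the most covered site of each of the 128 RNAs, called 0 of the 23 genes (0% of all RNAs), with 0 of them at an unadjusted p under 0.05. DESeq2 also called 0 RNAs. The lowest adjusted p among the 23 was 0.744. tRNA-Pro-TGG-1-1 had a CPM (reads scaled to a fixed TMM-adjusted total of the most covered site of each RNA) of 15.5, 13.4 and 12.7 in WT and 7.13, 11.2 and 13.0 in the knockout, a log2 fold change of -0.42 ± 0.26 (SE), and tRNA-Pro-CGG-1-3 one of 0.16 ± 0.14. tRNA-His-GTG-2-3 had 24.6, 22.4 and 23.4 in WT and 21, 18.2 and 17.1 in the knockout, with all knockout libraries below WT and a log2 fold change of -0.32 ± 0.18 (SE; edgeR adjusted p = 0.744). tRNA-Met-CAT-2-1 lay apart in the same direction (-0.29 ± 0.19), and tRNA-Ile-AAT-2-1 (0.38 ± 0.29) and tRNA-iMet-CAT-1-2 (0.19 ± 0.15) in the other. How many of all 128 RNAs lay apart in coverage was not counted, so nothing particular to these genes can be read from it. The most uneven gene was tRNA-Lys-CTT-3-1, at 342, 1840 and 1096 CPM in WT and 952, 1586 and 1270 in the knockout, a ratio of 5.38 between its extreme libraries. WT replicate 1 was the lowest there as well, while the m5C level in that library was still 99.2%.

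**Figure D5:**
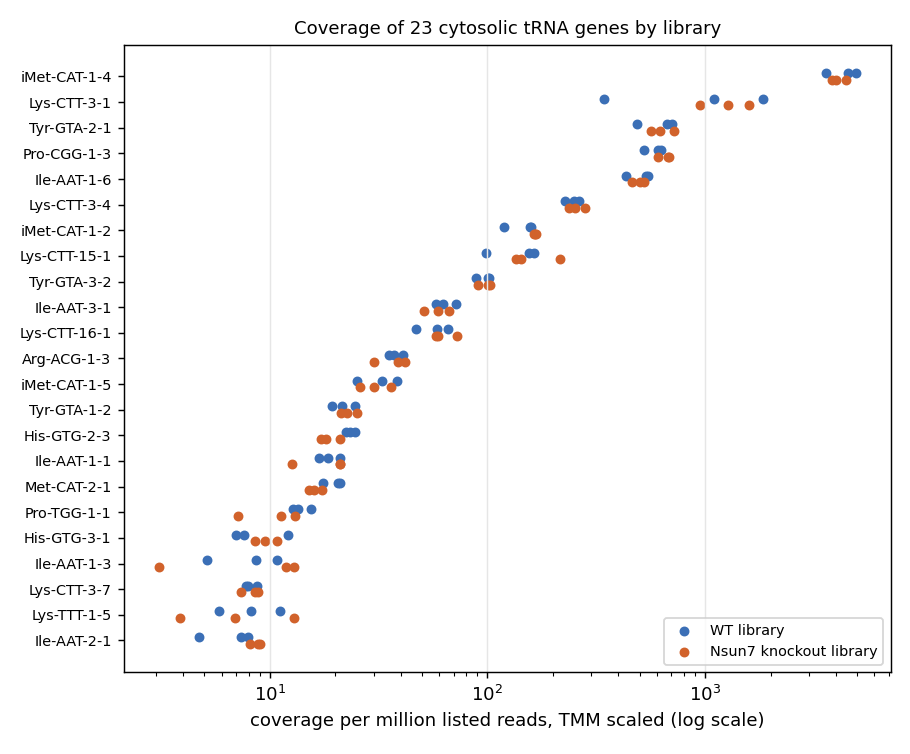
Coverage of the most covered site of each gene as CPM after TMM scaling (x axis, log scale) for the 23 tRNA genes (y axis), with WT libraries in blue and knockout libraries in orange. Coverage spans from 3.10 to 4925 CPM, and WT replicate 1 of Lys-CTT-3-1 stands apart at 342.

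Set beside the other classes of the table, the 29 sites had a median WT level of 72.9% (10 sites at 90% or more, 10 under 50%), against 79.8% over the 110 other cytosolic tRNA sites (31 and 17). Their median coverage was 65 reads against 496. The median of the absolute genotype difference was 2.19 points against 1.14, beside that lower coverage. The 8 mitochondrial tRNA sites had a median WT level of 92.2% and the 6 sites of tRNA-like tRX genes 96.7%. The median genotype difference was -0.0134 points over the other cytosolic sites, 0.813 over the mitochondrial and -0.987 over the tRX sites, beside 0.337 for the 29 sites.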

How the data were processed

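Testis small RNA was treated with an ultrafast bisulfite reagent and made into libraries with a small RNA kit, per the labels' protocols. cutadapt, Trimmomatic, HISAT2, Bowtie2, SAMtools and GRCm39 are named in the submitters' processing notes; roles, versions, site selection and read assignment are not given in the sources used here. For each library and site the authors deposited 2 raw counts, the coverage and the reads showing C, per the file headers, and the deposited m5C level is a fraction, rounded by the authors to within 0.005 of C over coverage. No per-sample column was left unmapped (0). Levels were recomputed from the counts as percentages. Coverage summed over listed sites was 4674265 to 5096438 reads per library.

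Sites with coverage of at least 10 in at least 2 libraries per genotype were tested with a two-sided quasi-binomial model in R 4.3.3, fitted on all small RNA sites, whose dispersion was not allowed under 1, with an adjusted p threshold of 0.05. Single sites had exact permutation tests over the 10 divisions of the 6 libraries, and family means are described without a p. limma 3.58.1, edgeR 4.0.16 and DESeq2 1.42.0 were used. The models were first tested on simulated data. All proline and isoleucine sites, the deepest site of each other family, sites whose genotypes lay apart and the extremes were named by rule. The members and lists were chosen with earlier results of these data known, and the comparison of gene copies and the counts of lowest libraries were added after seeing the values. An edgeR fit without tRNA-Glu-TTC-1-1, whose coverage was nearly equal in all libraries, was added after seeing the data.

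Same-numbered WT and knockout libraries deviated together in m5C (residual correlations 0.262, 0.643 and 0.500 over 173 sites, though WT replicate 3 and knockout replicate 1 also had 0.312), so replicate numbers were taken as pairing the libraries for m5C. The main quasi-binomial model, limma and the exact permutation tests did not use these pairs. They entered only the replicate block and the comparisons within same-numbered pairs. Within pairs, the sites of tRNA-Pro-TGG-1-1, tRNA-Ile-AAT-1-1 and tRNA-Lys-CTT-3-4 had an exact sign-flip p of 0.25, the smallest that 3 pairs allow. For coverage the correlations were 0.380, 0.251 and 0.0346, and the numbers were not taken as pairs. The mRNA and large RNA tables hold no row named for a cytosolic tRNA and were not used.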

Additional observations from a re-analysis of the deposited data

How the results depend on the processing

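The quasi-binomial model called 0 of the 29 sites and 0 of all sites under every alternative setting run. These were a coverage minimum of 5, 20 or none, dispersion without a floor or moderated, replicate block and 1 library left out. Of the other tests, limma on the levels also called 0 and 0. Fisher's exact test on pooled reads, which ignores the spread between libraries, called 1 and 24. With the replicate block 0 sites were called. Coverage calls were 0 in all fits, with the replicate block and without tRNA-Glu-TTC-1-1 too. The proline difference was 0.566 points with reads pooled over sites and 0.303 over sites with at least 50 reads, the isoleucine difference -2.66 over sites with at least 10, and the initiator methionine difference 2.61 as a median over sites instead of -0.625. Of neighbouring pairs, 4 passed, 1 of the 1 pair with at least 50 reads, and 0 with any library left out (0 to 0), since 5 libraries cannot reach the threshold. With 1 library left out the difference changed sign at 14 of the 29 sites, and at 25 it changed sign or moved over 1.5 times. Depth is 1 limit, with 16 of the 29 sites under 100 reads in every library. Spread between libraries beyond counting is another, and not particular to these sites. The dispersion was over 2 at 8 of the 29, and at 63 of the 184 tested sites of the whole table.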
